A study of Mus musculus with 4 samples.

Results

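TGF beta, BMP and activin signalling is represented here by 49 genes for ligands, the protease Bmp1, receptors, secreted antagonists, latent TGF beta binding proteins, Smads and Smurf ubiquitin ligases. They were taken by gene symbol from the deposited expression table, in which all 49 are present, with 71 RefSeq transcripts of 33072 and 49 genes of 24063. The study set melanotropes, the hormone cells of the intermediate pituitary lobe, against corticotropes of the anterior lobe, with 2 RNA-seq libraries of each. Both cell types were GFP-positive cells sorted by flow cytometry from mice of strain C57B6 that carry a POMC-EGFP transgene, after the lobes had been separated by dissection. All 4 libraries therefore share the transgene and the sort, GFP marks cells in which the Pomc promoter drives the reporter, and the lobe of origin alone gives the cell type. The labels give neither age, sex or number of animals per library nor whether each replicate was its own set of animals or its own sort, so the spread between libraries may be technical.

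Ligands of this superfamily bind a complex of type I and type II serine/threonine kinase receptors, and the type I receptor phosphorylates receptor Smads. Smad2 and Smad3 carry TGF beta and activin signals, Smad1, Smad5 and Smad9 carry BMP signals, and both groups enter the nucleus with Smad4. Smad6 and Smad7 inhibit the pathway, and secreted antagonists bind ligands outside the cell. In the pituitary, BMPs act in the early patterning of the gland, and activins, inhibins and follistatin are known above all for control of FSH in gonadotropes.

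Levels are FPKM (fragments scaled by transcript length and library total) of the longest transcript of each gene, rescaled between libraries. Differences are log2 fold changes of FPKM + 1, melanotrope over corticotrope, from limma fitted on all genes with at least 1 FPKM in at least 2 libraries, and a gene is called where the Benjamini-Hochberg adjusted p is under 0.05. The labels fitted the defining markers. The melanotrope transcription factor Pax7 stood at 57.2 and 56.0 FPKM in melanotropes against 9.45 and 7.97 FPKM in corticotropes, and the CRH receptor Crhr1 at 8.13 and 7.03 FPKM in melanotropes against 126 and 138 FPKM in corticotropes. Neither marker was absent from the other cell type. Somatotrope and lactotrope markers (Gh, Prl, Ghrhr, Pou1f1), 4 of 4 lower in melanotropes, summed to 7.63 and 52.6 FPKM in melanotropes against 5220 and 5190 FPKM in corticotropes, with Ghrhr at 0 in melanotrope replicate 1. Ghrhr and Pou1f1 passed the filter through corticotropes alone, which fixed their direction, and the part of these cells in the members' differences was not tested. The deposited columns have nearly equal sums, from 729482 to 729485, so they carry no library total. Reads per unit of FPKM times length, recovered from the steps of low values, were 1.90 and 2.03 times in melanotropes and 1.00 and 2.00 times in corticotropes relative to corticotrope replicate 1. This takes a step as a read. The largest fitting step was used, so a difference in depth cannot be told apart from one in counting unit.

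Smad6, an inhibitor of BMP signalling, showed the largest difference among the tested members: 0.533 and 0.744 FPKM in melanotropes against 19.8 and 24.1 FPKM in corticotropes. Of the 49 members, 33 passed the filter and were tested. In melanotropes 7 of the 33 were higher (21.2%), where 18.7% of the 13043 genes tested were higher, and 14 were lower (42.4%), where 17.5% of all genes tested were lower. In either direction 36.2% of all genes were called. The median log2 fold change of the tested members was -0.24, beside 0.01 for all genes. The other 12 tested members were not called. Smad6, Smad9, Grem1 and Fstl3 passed the filter through the corticotrope libraries alone and so had to lie lower in melanotropes, while no member passed through melanotropes alone. With a fold of FPKM + 1 of at least 1.5 and no overlap between the libraries of the cell types, 4 members were higher, beside 9.08% of all genes, and 9 were lower, beside 9.32% of all genes. Leaving out corticotrope replicate 2 reduced the members called lower to 9, with 29 members tested, and to 12 with a filter passed by 1 library. In bulk samples, fewer cells of a type and less RNA per cell cannot be told apart.

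The split between higher and lower depended on the scaling. On the FPKM as deposited, where Pomc takes a larger share of the melanotrope libraries, 4 members were higher and 25 lower of 33, beside 7.14% higher, 66.8% lower and 73.9% called of all 13153 genes tested. The median of all genes moved to -0.42 and that of the members to -0.66 on that scale. Smad5, Bmp1 and Ltbp3, called higher after rescaling, were not called on the deposited scale, with log2 fold changes there of 0.03, 0.06 and -0.02. Of the members called after rescaling, 4 of the 7 higher (Gdf11, Chrd, Bmp7 and Fstl1) and 10 of the 14 lower (Smad6, Smad9, Grem1, Smad3, Bmp6, Bambi, Smad1, Inhbb, Fstl3 and Smurf1) had the same call under every alternative run for them. Smad6, Smad9 and Fstl3 had 16 alternatives and Grem1 15, where the others had 18, because some filters dropped them. The main filter had also fixed the direction of Smad6, Smad9, Grem1 and Fstl3. Of the 12 members not called, 0 kept both their sign and the lack of a call under every alternative. The share of all genes with such steady calls was not computed.

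**Figure D1:**
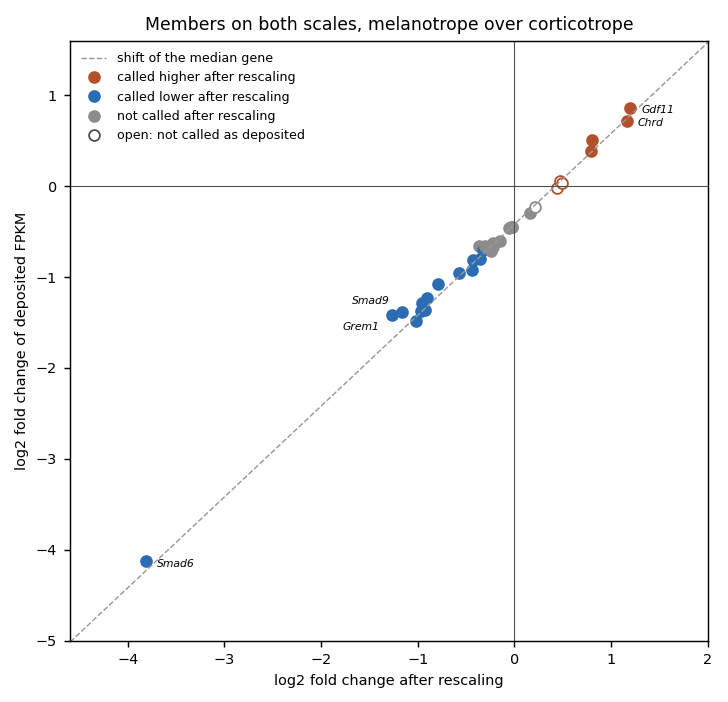
Log2 fold change, melanotrope over corticotrope, of the 33 tested members on the deposited FPKM (vertical) against that after rescaling (horizontal); each point is a gene, colours give the call after rescaling, and open points were not called on the deposited scale. Points lie along the dashed line, which is shifted by the -0.42 of the median gene, and Smad6 lies far below the others on both axes.

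The promoters of Smad6, Smad9, Gdf11 and Chrd are printed because Smad6 and Smad9 are the Smads with the largest falls in melanotropes on the log2(FPKM + 1) scale, and Gdf11 and Chrd are the tested members with the largest positive log2 fold changes of FPKM + 1. Each is the 250 bases before the transcript start, 5′ to 3′ on the gene's strand, from RefSeq on GRCm38.p6, and the start is the same as that of the deposited transcript. Smad6 lies at chr9:64022060-64022309 on the minus strand, Smad9 at chr3:54755332-54755581 on the plus strand, Gdf11 at chr10:128891719-128891968 on the minus strand, and Chrd at chr16:20732877-20733126 on the plus strand. Capitals mark GGCGCC, a motif described for BMP-responsive Smads that reads the same on both strands.
Smad6 promoter: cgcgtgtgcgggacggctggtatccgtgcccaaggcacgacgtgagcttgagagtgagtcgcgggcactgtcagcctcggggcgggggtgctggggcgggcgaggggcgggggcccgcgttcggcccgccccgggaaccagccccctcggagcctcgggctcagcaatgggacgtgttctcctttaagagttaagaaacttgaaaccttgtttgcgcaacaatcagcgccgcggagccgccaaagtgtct
Smad9 promoter: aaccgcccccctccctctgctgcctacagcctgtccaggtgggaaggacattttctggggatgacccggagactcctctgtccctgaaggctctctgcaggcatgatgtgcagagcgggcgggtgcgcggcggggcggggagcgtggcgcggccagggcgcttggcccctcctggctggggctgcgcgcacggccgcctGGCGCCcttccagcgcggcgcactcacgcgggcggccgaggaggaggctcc
Gdf11 promoter: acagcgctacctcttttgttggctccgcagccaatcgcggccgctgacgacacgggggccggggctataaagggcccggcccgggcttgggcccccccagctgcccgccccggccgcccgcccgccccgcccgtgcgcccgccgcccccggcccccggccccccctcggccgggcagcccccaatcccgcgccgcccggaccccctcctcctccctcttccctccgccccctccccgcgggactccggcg
Chrd promoter: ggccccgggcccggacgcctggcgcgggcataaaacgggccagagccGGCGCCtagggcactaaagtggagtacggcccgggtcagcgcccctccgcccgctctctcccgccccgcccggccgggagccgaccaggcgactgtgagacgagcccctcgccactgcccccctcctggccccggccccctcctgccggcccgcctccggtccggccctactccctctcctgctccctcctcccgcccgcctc

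GGCGCC occurred once in the Smad9 window and once in the Chrd window, and was not in the windows of Smad6 and Gdf11. Neither GTCTAGAC, the palindromic Smad3 and Smad4 motif, nor CAGAC, a shorter Smad-binding motif searched on both strands, was in these 4 windows. RefSeq promoters were found for 36 of the 49 members, 46 promoters in all. GGCGCC was in 10 of these 46 (21.7%), beside 9.59% of 32851 promoters. CAGAC was in 22 of 46 (47.8%), beside 42.2% of all, and GTCTAGAC in 0 of 46, beside 0.167% of all. None of these motifs contains another, and a match describes letters in the window only.

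**Figure D2:**
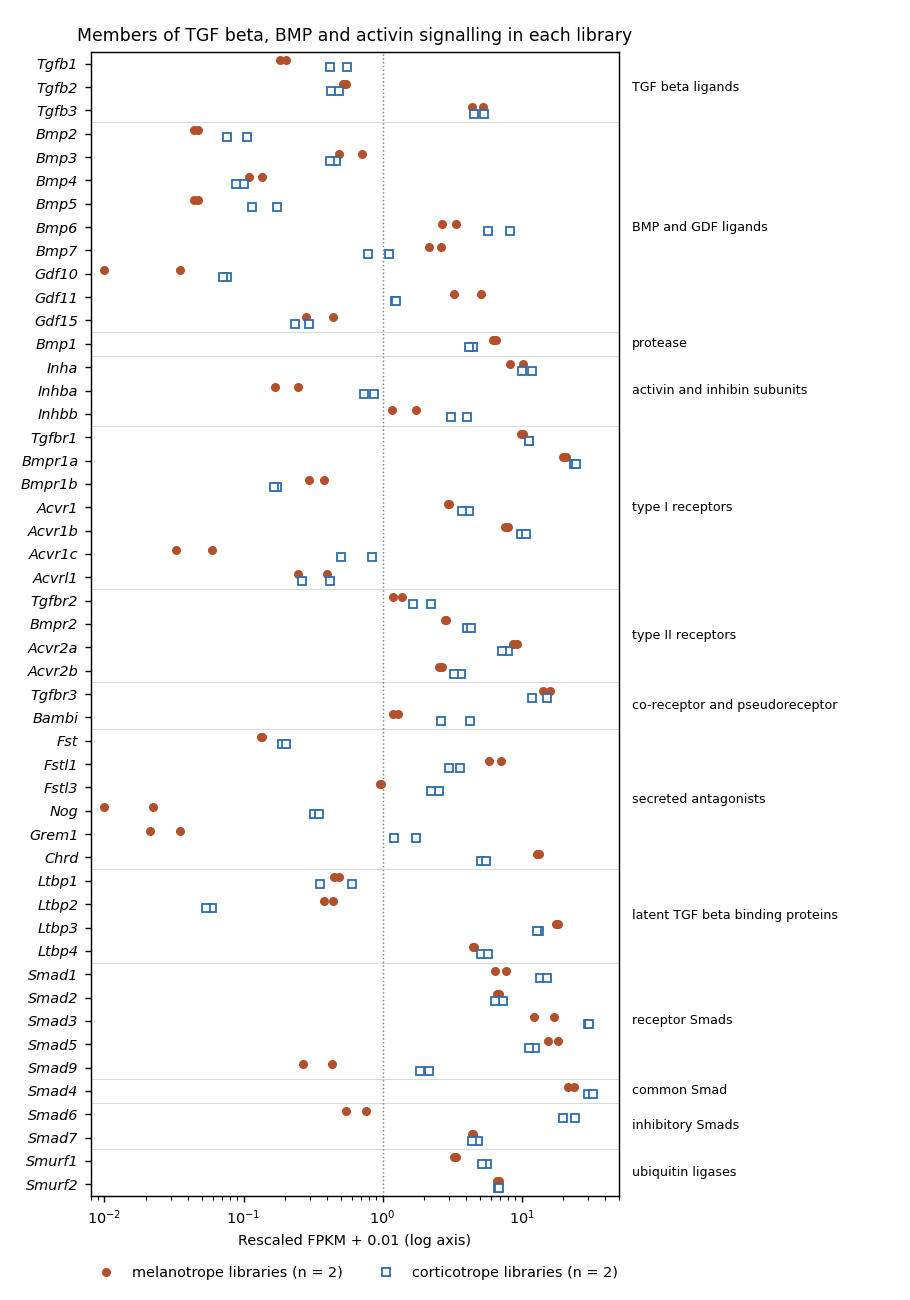
Rescaled FPKM + 0.01 of all 49 members on a log axis, by role; filled circles are the 2 melanotrope libraries and open squares the 2 corticotrope libraries, and the dotted line marks 1 FPKM. Smad6, Grem1, Acvr1c and Nog are far apart between the cell types, and most receptors lie close together.

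Among the TGF beta ligands, Tgfb3 was the one with the highest level and did not differ beyond its spread. It stood at 4.36 and 5.24 FPKM in melanotropes and at 4.54 and 5.36 FPKM in corticotropes (log2 fold change -0.04, SE 0.12, limma adjusted p = 0.824), with overlapping libraries. Its exons share 12.4% of their bases with a gene model on the opposite strand. Tgfb1 and Tgfb2 stayed under 1 FPKM in every library and were not tested: Tgfb1 had 0.193 and 0.174 FPKM in melanotropes against 0.548 and 0.408 FPKM in corticotropes.

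Of the BMP and GDF ligands, 3 of 9 were expressed highly enough to test, and all 3 were called. Bmp6 was lower in melanotropes, and Bmp7 and Gdf11 were higher, so the ligand with the highest level differed between the cell types. Bmp6, a BMP ligand (chromosome 13, 38345716 to 38499728, mm10), stood at 2.68 and 3.35 FPKM in melanotropes against 5.71 and 8.18 FPKM in corticotropes (log2 fold change -0.97, SE 0.17, limma adjusted p = 0.00651). Its exons share 5.74% of their bases with Txndc5 on the opposite strand, which stood at 76.4 and 69.3 FPKM in melanotropes and 61.0 and 52.3 FPKM in corticotropes, and whether the authors counted by strand is not stated. Gdf11, which signals through activin type receptors and Smad2 and Smad3 (chromosome 10, 128884546 to 128891718), stood at 3.26 and 5.12 FPKM in melanotropes against 1.21 and 1.23 FPKM in corticotropes (log2 fold change 1.20, SE 0.17, adjusted p = 0.00337). The melanotrope libraries of Gdf11 were farther apart than the corticotrope ones, and both lay above them. Bmp7 (chromosome 2, 172868012 to 172940321) had 2.14 and 2.63 FPKM in melanotropes against 0.778 and 1.11 FPKM in corticotropes (log2 fold change 0.80, SE 0.13, adjusted p = 0.00504). Within a library, where the scaling cancels, Bmp6 stood to Gdf11 at 0.822 and 0.654 in melanotropes against 4.72 and 6.63 in corticotropes, a pair chosen after its values were seen. Bmp2, Bmp3, Bmp4, Bmp5, Gdf10 and Gdf15 stayed under 1 FPKM in all 4 libraries, between 0 (Gdf10, listed at 0 in melanotrope replicate 1) and 0.706 FPKM (Bmp3, melanotrope replicate 2). Bmp1, a procollagen protease that also cleaves chordin and is not a BMP ligand, had 6.50 and 6.21 FPKM in melanotropes against 4.45 and 4.14 FPKM in corticotropes (log2 fold change 0.47, SE 0.09, adjusted p = 0.00771), a call not made on the deposited scale.

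Inhba and Inhbb encode the activin beta subunits, and Inha the alpha subunit that pairs with them to form inhibins. Inha was the highest of the 3, at 10.2 and 8.24 FPKM in melanotropes and 11.8 and 10 FPKM in corticotropes, with overlapping libraries (log2 fold change -0.22, SE 0.13, adjusted p = 0.228). Inhbb (chromosome 1, 119415465 to 119422248) was lower in melanotropes, at 1.15 and 1.74 FPKM against 3.08 and 4.01 FPKM in corticotropes (log2 fold change -0.90, SE 0.16, adjusted p = 0.00695). Inhba had 0.159 and 0.235 FPKM in melanotropes against 0.720 and 0.852 FPKM in corticotropes and was not tested. Gonadotropes express inhibin subunits, and their marker list moved the same way: 5 of 5 markers (Lhb, Fshb, Gnrhr, Nr5a1, Foxl2) were lower in melanotropes, with a summed level of 2.27 and 3.21 FPKM in melanotropes against 146 and 114 FPKM in corticotropes. Gnrhr, Nr5a1 and Foxl2 passed the filter through corticotropes alone, so their direction was fixed by it. None of these 5 was at 0 in any library. The part of gonadotrope RNA in the Inhbb difference was not tested.

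Of the type I receptors, 2 of 4 tested were called (Acvr1 and Acvr1b), and of the type II receptors 1 of 4 (Bmpr2). All were lower in melanotropes, where 17.5% of all genes tested were lower and 36.2% were called in either direction. Of the 7 type I receptors, Bmpr1a, a BMP receptor, was the highest in all 4 libraries, at 19.7 and 21.0 FPKM in melanotropes and 23.8 and 24.8 FPKM in corticotropes. Its libraries did not overlap, but it was not called (log2 fold change -0.24, SE 0.08, adjusted p = 0.0598). Bmpr1a made up 47.4% and 49.9% of the summed type I receptor FPKM in melanotropes and 47.5% and 47.7% in corticotropes. Tgfbr1, the TGF beta type I receptor, had 10.3 and 9.84 FPKM in melanotropes and 11.3 and 11.3 FPKM in corticotropes (adjusted p = 0.185). Acvr1b, an activin receptor, was lower in melanotropes, at 7.96 and 7.62 FPKM against 9.86 and 10.8 FPKM in corticotropes (log2 fold change -0.36, SE 0.08, adjusted p = 0.0201). Acvr1, a type I receptor for BMPs, was lower at 2.93 and 3.0 FPKM in melanotropes against 4.20 and 3.73 FPKM in corticotropes (log2 fold change -0.32, SE 0.09, adjusted p = 0.0392). These 2 calls were not stable. Acvr1 was not called without corticotrope replicate 1, melanotrope replicate 1 or melanotrope replicate 2 (adjusted p = 0.170, 0.162 and 0.135), and Acvr1b not without corticotrope replicate 2, melanotrope replicate 1 or melanotrope replicate 2 (adjusted p = 0.0732, 0.0560 and 0.0928). The remaining type I receptors stayed under 1 FPKM. Acvr1c, which encodes ALK7, had 0.0227 and 0.0496 FPKM in melanotropes against 0.491 and 0.826 FPKM in corticotropes, Bmpr1b had 0.284 and 0.372 FPKM in melanotropes against 0.164 and 0.156 FPKM in corticotropes, and the endothelial receptor Acvrl1 overlapped between the cell types.

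Acvr2a, an activin type II receptor, was the highest of the 4 type II receptors in every library, and 3 of the 4 were not called. It stood at 9.25 and 8.61 FPKM in melanotropes and 7.91 and 7.26 FPKM in corticotropes (log2 fold change 0.21, SE 0.09, adjusted p = 0.112), and on the deposited scale its sign turned, to -0.23. Acvr2a took 57.9% and 56.3% of the summed type II receptor FPKM in melanotropes against 45.9% and 42.7% in corticotropes. Bmpr2, the BMP type II receptor, was lower, at 2.87 and 2.78 FPKM in melanotropes against 4.04 and 4.28 FPKM in corticotropes (log2 fold change -0.43, SE 0.09, adjusted p = 0.0113), and was not called without melanotrope replicate 2 (adjusted p = 0.0662). Acvr2b had 2.68 and 2.55 FPKM in melanotropes and 3.63 and 3.26 FPKM in corticotropes (adjusted p = 0.0508), and Tgfbr2, the TGF beta type II receptor, 1.18 and 1.36 FPKM in melanotropes and 1.65 and 2.22 FPKM in corticotropes (adjusted p = 0.0678). Neither was called although their libraries did not overlap.

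The pseudoreceptor Bambi, which lacks a kinase domain and blocks signalling, was lower in melanotropes, and the co-receptor Tgfbr3 was not called. Bambi had 1.18 and 1.29 FPKM in melanotropes against 2.63 and 4.24 FPKM in corticotropes (log2 fold change -0.96, SE 0.18, adjusted p = 0.00823). Tgfbr3, also known as betaglycan and needed for high-affinity binding of inhibin, was among the most abundant members, at 14.3 and 15.9 FPKM in melanotropes and 11.8 and 15.1 FPKM in corticotropes, with overlapping libraries (log2 fold change 0.16, SE 0.13, adjusted p = 0.374).

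Secreted antagonists split by gene. Chrd and Fstl1 were higher in melanotropes, Grem1 and Fstl3 were lower, and Nog and Fst were too low to test. Chrd encodes chordin, which binds BMPs and keeps them from their receptors (chromosome 16, 20733127 to 20742384). It was the most abundant antagonist, at 12.9 and 13.3 FPKM in melanotropes against 5.12 and 5.51 FPKM in corticotropes (log2 fold change 1.16, SE 0.08, adjusted p = 0.000243). Fstl1, a secreted follistatin-like glycoprotein (chromosome 16, 37777055 to 37836516), had 5.77 and 7.08 FPKM in melanotropes against 2.98 and 3.57 FPKM in corticotropes (log2 fold change 0.79, SE 0.12, adjusted p = 0.00437). Grem1 encodes gremlin, a BMP antagonist (chromosome 2, 113748675 to 113758648). It was close to 0 in melanotropes, at 0.0113 and 0.0248 FPKM, and reached 1.73 and 1.20 FPKM in corticotropes (log2 fold change -1.27, SE 0.13, adjusted p = 0.000907). At such a level the melanotrope values rest on rounding to 2 decimals, so no fold is given. Nog, which encodes the BMP antagonist noggin, was listed at 0 and stood at 0.0124 FPKM in melanotropes, against 0.311 and 0.339 FPKM in corticotropes.

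Fstl3, a follistatin-like protein that binds activin (chromosome 10, 79777274 to 79782630), had 0.964 and 0.954 FPKM in melanotropes against 2.55 and 2.22 FPKM in corticotropes (log2 fold change -0.79, SE 0.10, adjusted p = 0.00195). Its exons share 47.3% of their bases with Prss57 on the opposite strand, which stood at 0.590 and 0.570 FPKM in melanotropes against 1.33 and 1.23 FPKM in corticotropes. The sources used here do not say whether the authors counted by strand, so reads of Fstl3 and Prss57 cannot be told apart there. Fst, which encodes follistatin, stayed at 0.125 and 0.124 FPKM in melanotropes against 0.180 and 0.191 FPKM in corticotropes. Within a library, Fstl3 stood to Fstl1 at 0.167 and 0.135 in melanotropes against 0.857 and 0.620 in corticotropes, a pair chosen after its values were seen.

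Of the latent TGF beta binding proteins, some but not all tether the ligand's inactive form to the matrix. Ltbp3 was the most abundant, at 18.4 and 17.8 FPKM in melanotropes against 13.3 and 12.9 FPKM in corticotropes (log2 fold change 0.44, SE 0.08, adjusted p = 0.00672), and its sign turned to -0.02 on the deposited scale. Ltbp4 had 4.56 and 4.46 FPKM in melanotropes and 5.12 and 5.74 FPKM in corticotropes (log2 fold change -0.22, SE 0.09, adjusted p = 0.108). Ltbp2 was low but separate, at 0.431 and 0.372 FPKM in melanotropes against 0.0491 and 0.0435 FPKM in corticotropes, and Ltbp1 overlapped between the cell types. Markers of fibroblasts and pericytes, which make matrix proteins, summed to 19.7 and 16.9 FPKM in melanotropes against 7.77 and 9.54 FPKM in corticotropes over 7 genes, of which 4 were tested and 3 were higher in melanotropes. Pituicyte and glial markers summed to 15.2 and 18.6 FPKM in melanotropes against 2.41 and 3.22 FPKM in corticotropes, and both of those tested (Slc1a3 and Rax) were higher. Slc1a3, at 11.1 and 14.1 FPKM in melanotropes, made up most of that sum. Among those too low to test, Gfap and Nkx2-1 lay higher in melanotropes. Aqp4 lay lower, at 0.556 and 0.682 FPKM in melanotropes against 0.753 and 0.999 FPKM in corticotropes. Col3a1, Lum and Rax passed the filter through melanotropes alone, which fixed their direction. None of these 12 genes was at 0 in any library. The part of such cells in the higher values of Chrd, Fstl1, Bmp7, Gdf11 and the Ltbp genes was not tested.

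The BMP Smads did not move together. Smad1 and Smad9 were lower in melanotropes and Smad5 was higher. Smad1 (chromosome 8, 79338398 to 79399468) stood at 6.47 and 7.75 FPKM in melanotropes against 13.5 and 15.1 FPKM in corticotropes (log2 fold change -0.92, SE 0.11, adjusted p = 0.00158). Smad5 stood at 15.5 and 18.4 FPKM in melanotropes against 12.4 and 11.2 FPKM in corticotropes (log2 fold change 0.49, SE 0.11, adjusted p = 0.0167). Smad5 kept its call in 14 of 18 alternatives, with log2 fold changes from 0.03 to 0.60. The call was lost on the deposited scale and without melanotrope replicate 2. With a filter passed by 1 library, it was also lost without corticotrope replicate 2. Smad9 (chromosome 3, 54755582 to 54801269) was low throughout, at 0.420 and 0.260 FPKM in melanotropes against 2.14 and 1.84 FPKM in corticotropes (log2 fold change -1.16, SE 0.11, adjusted p = 0.000737). After rescaling, the sum of these BMP Smads was 22.4 and 26.4 FPKM in melanotropes and 28.0 and 28.1 FPKM in corticotropes. The libraries did not overlap in this sum, which moves with the scaling and was not tested. Its makeup differed: Smad5 took 69.2% and 69.7% of the sum in melanotropes against 44.2% and 39.8% in corticotropes. The ratio of Smad1 to Smad5 within a library, which no scaling can move, was 0.418 and 0.421 in melanotropes against 1.09 and 1.35 in corticotropes.

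**Figure D3:**
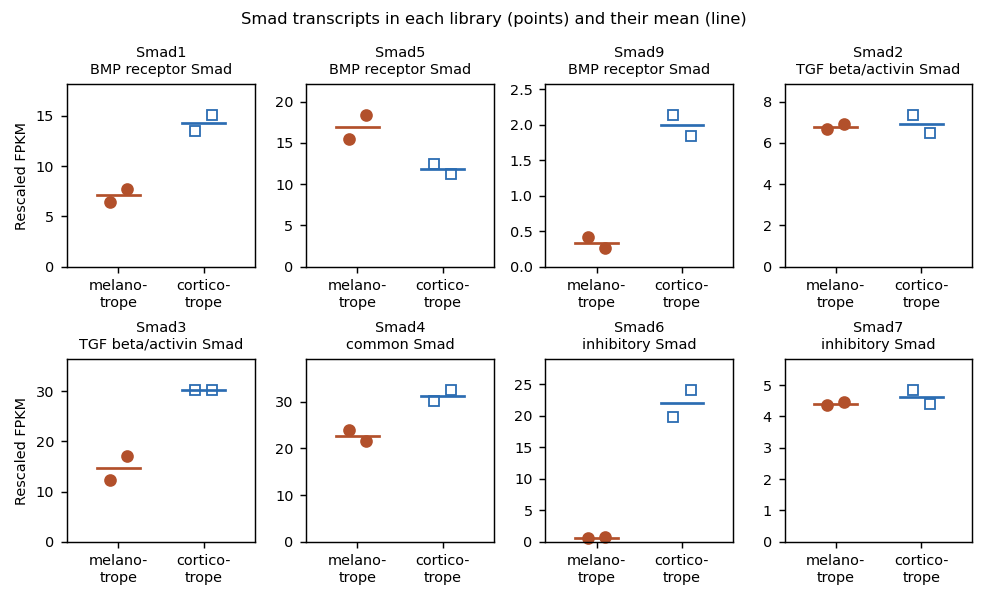
Rescaled FPKM of the 8 Smads, each on its own axis from 0; points are libraries (2 melanotrope, filled; 2 corticotrope, open) and lines their means. Smad6, Smad1, Smad3 and Smad9 lie lower in melanotropes, Smad5 lies higher, and Smad2 and Smad7 overlap.

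Among the TGF beta and activin Smads, Smad3 was lower in melanotropes and Smad2 was not called. Smad3 (chromosome 9, 63646767 to 63757994) had 12.3 and 17.0 FPKM in melanotropes against 30.2 and 30.3 FPKM in corticotropes (log2 fold change -1.02, SE 0.15, adjusted p = 0.00313). Smad2 had 6.65 and 6.90 FPKM in melanotropes and 7.36 and 6.47 FPKM in corticotropes, with overlapping libraries (log2 fold change -0.02, SE 0.09, adjusted p = 0.860). Smad3 exceeded Smad2 in all 4 libraries, at a ratio of 1.85 and 2.46 in melanotropes against 4.10 and 4.68 in corticotropes. Smad4, the partner shared by all receptor Smads, was lower at 23.9 and 21.6 FPKM in melanotropes against 30.1 and 32.6 FPKM in corticotropes (log2 fold change -0.44, SE 0.09, adjusted p = 0.0118). That call was lost without melanotrope replicate 2 (adjusted p = 0.0526) and, with a filter passed by 1 library, without corticotrope replicate 2 (adjusted p = 0.0534).

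The inhibitory Smads parted. Smad6 (chromosome 9, 63953076 to 64022059, minus strand) fell by 3.81 on the log2 scale (SE 0.12, adjusted p = 3.11e-05), and mean FPKM in corticotropes was 34.4 times that in melanotropes, from the library values given above. If a step is a read, its values stand for about 305 and 417 reads in melanotropes against 8270 and 18986 reads in corticotropes. The melanotrope level was thus not limited by rounding. The authors' deposited table gives Smad6 a log2 fold change of -4.27 with an FDR of 7.4e-09. It is the only one of the 71 member transcripts with an FDR under 0.05 in the authors' deposited table, where 754 transcripts (2.28%) have one. Those FDR values were computed from FPKM, per the file headers, and may not fit that unit. Smad7, which inhibits TGF beta and BMP signals alike, had 4.36 and 4.45 FPKM in melanotropes and 4.85 and 4.39 FPKM in corticotropes (log2 fold change -0.06, SE 0.09, adjusted p = 0.664). The ratio of Smad6 to Smad7 was 0.122 and 0.167 in melanotropes against 4.09 and 5.50 in corticotropes, so which of the 2 inhibitors was more abundant differed between the cell types. Smad6 made up 0.760% and 0.965% of the summed FPKM of the 8 Smads in melanotropes against 16.5% and 19.1% in corticotropes.

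Smad6 is also expressed in endothelium, and endothelial markers moved the same way. Of 6 such markers (Pecam1, Cdh5, Kdr, Tek, Emcn, Plvap) 4 were tested and 3 were lower in melanotropes, and their sum was 5.76 and 3.99 FPKM in melanotropes against 12.5 and 19.1 FPKM in corticotropes. Pecam1 and Emcn passed the filter through corticotropes alone, which fixed their direction. None was at 0 in any library, and the part of endothelial RNA in the Smad6 difference was not tested. Acvrl1, the endothelial type I receptor, had 0.386 and 0.235 FPKM in melanotropes and 0.254 and 0.408 FPKM in corticotropes.

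The ubiquitin ligases Smurf1 and Smurf2 mark Smads and receptors for degradation. Smurf1 was lower, at 3.37 and 3.26 FPKM in melanotropes against 5.66 and 5.15 FPKM in corticotropes (log2 fold change -0.57, SE 0.09, adjusted p = 0.00443). Smurf2 had 6.60 and 6.85 FPKM in melanotropes and 6.80 and 6.90 FPKM in corticotropes, with overlapping libraries (log2 fold change -0.02, SE 0.08, adjusted p = 0.845). The ratio of Smurf1 to Smurf2 was 0.510 and 0.476 in melanotropes against 0.833 and 0.747 in corticotropes. All ratios between Smads and between Smurfs given here were chosen after the values were seen.

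**Figure D4:**
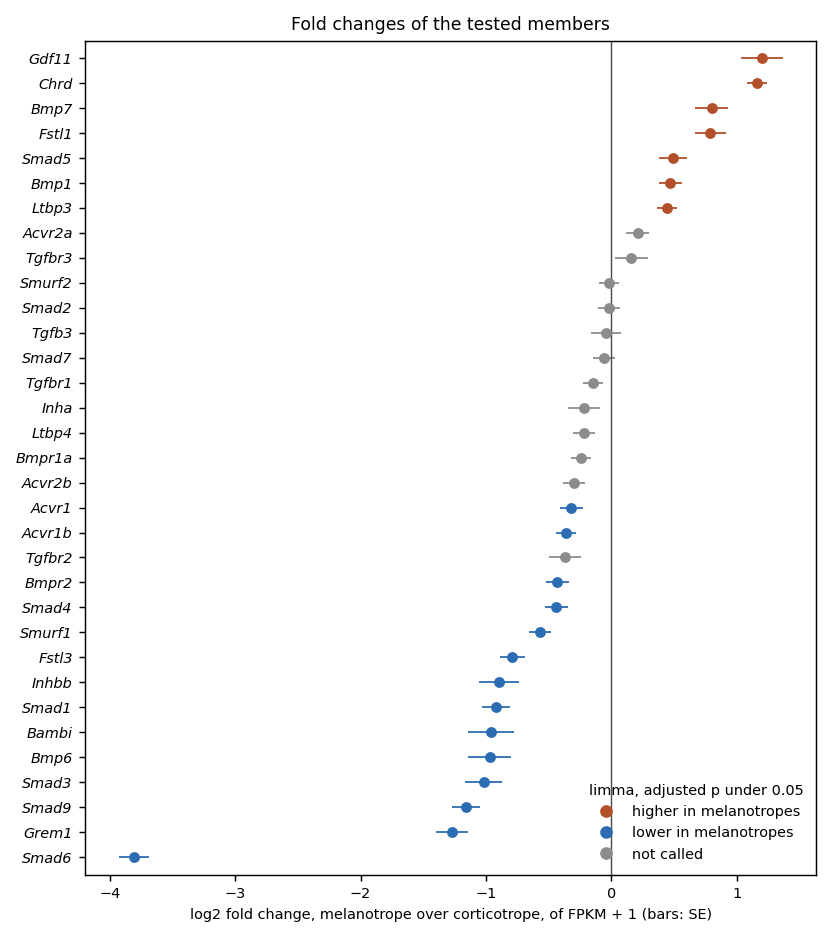
Log2 fold change of FPKM + 1, melanotrope over corticotrope, of the 33 tested members, ordered by size; points are limma estimates, bars are SE, and colours give the call at an adjusted p under 0.05. Smad6 stands apart at -3.81, and the others lie between -1.27 (Grem1) and 1.20 (Gdf11).

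Of the 49 members, 13 have more than 1 transcript in the table, and in each of these 13 all tested transcripts had the same call. Of 71 transcripts 43 were tested, 11 higher and 18 lower in melanotropes, beside 19.7% higher, 18.0% lower and 37.7% called of all 19849 transcripts tested. Transcripts of a gene share reads and are not independent. Without melanotrope replicate 2 the lower transcripts were 11.

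A further 92 genes of the same pathway, listed by role with earlier results of these data known, were counted beside the members. Of these, 53 were tested, 9 were higher in melanotropes (17.0%) and 18 lower (34.0%), and 26 were not called, beside 18.7% higher and 17.5% lower of all genes tested. The share higher was thus close to that of all genes. Pcsk6, Fstl5, Cdkn1a, Zeb2, Bmper and Itgb6 passed the filter through corticotropes alone, and Tgfbi and Nbl1 through melanotropes alone, so the filter fixed the direction of these 8. Leaving out melanotrope replicate 2 gave 5 higher of 51 tested, and leaving out corticotrope replicate 1 or 2 gave 10 or 9 lower of 47 tested. With a filter passed by 1 library, the same fits gave 8 higher, and 19 or 15 lower. By role, 4 of 14 tested target genes were higher and 6 lower, 2 of 13 other extracellular antagonists and activators were higher and 7 lower, and 1 of 23 intracellular regulators was higher and 5 lower. Gdf1 was the sole other ligand tested and was higher, with 6.07 and 6.20 FPKM in melanotropes against 3.36 and 3.09 FPKM in corticotropes (adjusted p = 0.00132), a gene named after its values were seen. Exon sharing with other genes was not computed for Gdf1, so its reads may include those of another gene.

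Target genes did not move as a block. Id1, an immediate BMP target that inhibits bHLH transcription factors, was lower at 1.27 and 1.31 FPKM in melanotropes against 6.10 and 6.69 FPKM in corticotropes (log2 fold change -1.69, adjusted p = 9.77e-05). Id3 was lower as well, with 2.92 and 4.0 FPKM in melanotropes against 4.85 and 5.96 FPKM in corticotropes (log2 fold change -0.53, adjusted p = 0.0371). Id4 was higher, with 25.4 and 31.3 FPKM in melanotropes against 9.68 and 14.6 FPKM in corticotropes (log2 fold change 1.18, adjusted p = 0.00516), and Id2, at 23.7 and 30.2 FPKM in melanotropes and 20.5 and 22.7 FPKM in corticotropes, was not called (adjusted p = 0.123). Id2, Id3 and Id4 were named after their values were seen, to stand beside Id1. Tgfbi, a TGF beta-induced matrix protein, was higher at 5.62 and 7.57 FPKM in melanotropes against 0.237 and 0.382 FPKM in corticotropes (log2 fold change 2.53, adjusted p = 0.000124). Cdkn1a, the p21 cell cycle inhibitor, was lower at 0.374 and 0.310 FPKM in melanotropes against 4.04 and 3.20 FPKM in corticotropes (log2 fold change -1.78, adjusted p = 0.000210). The filter had fixed the direction of Tgfbi and Cdkn1a. Macrophages also express Tgfbi. Their 6 markers summed to 13.4 and 17.5 FPKM in melanotropes against 4.0 and 5.82 FPKM in corticotropes, with 4 of 4 tested higher and none at 0 in any library. Csf1r and Cx3cr1 passed the filter through melanotropes alone, which fixed their direction, and the part of macrophages in the Tgfbi difference was not tested.

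**Figure D5:**
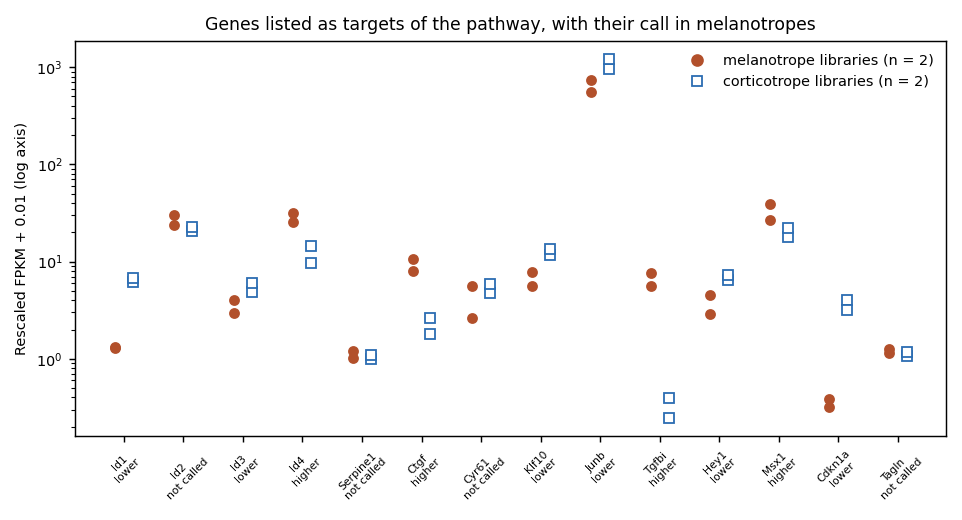
Rescaled FPKM + 0.01 on a log axis of the 14 tested genes listed as targets, with the call in melanotropes under each name; filled circles are the 2 melanotrope libraries and open squares the 2 corticotrope libraries. Tgfbi, Ctgf, Id4 and Msx1 lie higher in melanotropes, and Id1, Id3, Klf10, Junb, Hey1 and Cdkn1a lie lower.

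Outside the cell, Rgmb, a BMP co-receptor, was higher at 21.9 and 21.8 FPKM in melanotropes against 9.64 and 9.67 FPKM in corticotropes (log2 fold change 1.10, adjusted p = 0.000208). The BMP antagonist Nbl1 was higher at 3.44 and 3.28 FPKM in melanotropes against 0.900 and 0.869 FPKM in corticotropes (log2 fold change 1.21, adjusted p = 0.000287). Both libraries of each cell type were close together for these genes. Among the subunits of integrins that release latent TGF beta, Itgb8 was higher, and Itgb6 and their partner Itgav were lower. Itgb6 was named after its values were seen. It had 0.715 and 0.991 FPKM in melanotropes against 1.89 and 1.57 FPKM in corticotropes (log2 fold change -0.56, limma adjusted p = 0.0148). Itgb8 had 6.61 and 8.29 FPKM in melanotropes against 2.30 and 2.48 FPKM in corticotropes (log2 fold change 1.31, adjusted p = 0.000555), and Itgav 6.70 and 7.14 FPKM in melanotropes against 13.6 and 13.0 FPKM in corticotropes (log2 fold change -0.85, adjusted p = 0.000686). Pcsk6, a convertase that processes ligand precursors, was lower, with 0.692 and 0.644 FPKM in melanotropes against 5.03 and 4.41 FPKM in corticotropes (log2 fold change -1.77, adjusted p = 0.000109). Fstl5, a follistatin-like gene, was lower, with 0.0567 and 0.0496 FPKM in melanotropes against 2.17 and 2.47 FPKM in corticotropes (log2 fold change -1.65, adjusted p = 0.000149). The filter had fixed the direction of Nbl1, Itgb6, Pcsk6 and Fstl5. In the nucleus, the Smad corepressor Tgif1 was lower, with 0.964 and 1.72 FPKM in melanotropes against 7.69 and 9.24 FPKM in corticotropes (log2 fold change -2.03, adjusted p = 0.000453).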

How the data were processed

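RNA of 2 melanotrope and 2 corticotrope libraries was depleted of ribosomal RNA and read as paired ends, per the labels' protocols. Per the file headers, the authors obtained FPKM per RefSeq transcript (mm10) from reads in exons with the HOMER program analyzeRepeats. The deposited table also holds log2 fold changes, p-values and FDR that the authors computed with HOMER's getDiffExpression from the FPKM, per the file headers, and its fold (ratio) column was not used. TopHat, HOMER and edgeR are named, without versions, in the submitters' processing notes.

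Members and lists were chosen with earlier results of these data known. FPKM, deposited to 2 decimals, were divided by TMM-type factors (0.882 and 0.807 in melanotropes, 1.22 and 1.15 in corticotropes), computed without weights with trims of 30% and 5%. The longest transcript stood for each gene. limma 3.58.1 in R 4.3.3 (trend, two-sided, Benjamini-Hochberg over all genes tested, threshold 0.05) was fitted on log2(FPKM + 1) of genes with at least 1 FPKM in at least 2 libraries. Adding 1 makes differences of low genes look smaller. Residual degrees of freedom were 2 and prior ones 4.02. On simulated data for this comparison with 12748 genes, limma found 100% of 100 genes with a log2 change of 1 and 100% of 100 with a change of 2, with 11 false calls. The noise was drawn independently for each library from the variances of the same fit. Changes were planted only in genes of middle level, above several low members, and in far fewer genes than were called in the data. The recovery therefore does not cover low genes or libraries that vary together.

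Reads per unit were recovered from short transcripts, whose FPKM times length fell on whole steps for 97.9% to 100% of values (within 0.1 step). The largest such step in each library was taken as a read. Values in all libraries were given for members past the threshold with no overlap and a fold of FPKM + 1 of at least 1.5 and for the highest of each role, and 10 other pathway genes were named by smallest adjusted p. Other members were given to account for each. Exon overlap was computed on the GENCODE annotation of GRCm38, for the members alone. Alternatives covered pseudocounts, filters, scalings, transcript choice, prior variance, the replicate block and leaving out each library.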

Additional observations from a re-analysis of the deposited data

How the results depend on the processing

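On the deposited FPKM, 939 genes were higher and 8787 lower in melanotropes, members were 4 higher and 25 lower, member transcripts 5 higher and 31 lower, and 38 other pathway genes were lower. Without a filter 17 member transcripts were higher. Leaving out each library gave 1389 to 2058 genes higher and 1563 to 2033 lower, 6 to 7 members higher and 9 to 14 lower, 8 to 11 transcripts higher and 11 to 13 lower, and 5 to 10 other pathway genes higher and 9 to 19 lower. Of these, the genes higher were 1624 without melanotrope replicate 1 and 1389 without melanotrope replicate 2. Signs turned, for members that were not called and for Ltbp3, on the deposited scale (Acvr2a -0.23, Ltbp3 -0.02, Tgfbr3 -0.30, and of other genes Id2 -0.17), with equal sums of transcripts other than Pomc (Smad2 0.02, Smurf2 0.02, Tgfb3 0.01), and without corticotrope replicate 1 (Smad2 0.06), corticotrope replicate 2 (Tgfb3 0.06) or melanotrope replicate 1 (Tgfb3 0.07). Over the fits that left out a library, Smad2 ranged between -0.10 and 0.06 and Tgfb3 between -0.15 and 0.07. The cause was not tested beyond the shift that each scaling makes. With 2 libraries a group, a leave-one-out fit leaves 1 library assumed to vary like the others. The runs with a filter passed by 1 library were chosen after seeing the data.

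With the replicate block, 8 members were higher and 19 lower, as were 3656 and 3350 of all genes, 12 and 24 member transcripts, and 14 and 18 other pathway genes. The labels share only a number, and deviations of same-numbered libraries correlated at 0.526 over 13043 genes with 2 pairs, a hint from the data alone.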
